A study of Zea mays with 8 samples.

Results

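The sucrose synthases and invertases of maize are the enzymes that cleave sucrose, and they were followed here through a growing leaf at low and high nitrogen supply. They were chosen by gene identifier: the table was searched for 7 genes, the sucrose synthases sus1, sh1 and sus2, the vacuolar invertases ivr1 and ivr2, and the cell wall invertases incw1 and mn1. Of these, 5 have a line under their identifier among the 43110 loci of the table, namely sus1, sus2, ivr2, incw1 and mn1. Of the 5, only sus1, sus2 and ivr2 reached a mean of 1 FPKM (fragments counted for a transcript, divided by its length and by the library's mapped fragments) in at least 1 group and were tested. No line was used under the identifiers of the sucrose synthase sh1 and the invertase ivr1, but a RefSeq gene table pairs them with the loci listed in the table under the symbols SH-1 and IVR1, each on the chromosome of its RefSeq gene. These loci are described under those symbols and are not counted among the 5. SH-1 was tested and IVR1 was not.

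Leaf 6 of maize was sampled for RNA sequencing. The plants, of the inbred line B73, stood in hydroponics with a nitrogen supply of 0.04 mM (low nitrogen, LN) or 4 mM (high nitrogen, HN). Tissue came from the elongation zone, where cells lengthen, or from the division zone, where cells divide. The groups were LN elongation, HN elongation, LN division and HN division, with 2 libraries each and 8 in all. The libraries are described as biological replicates, but nothing says whether they came from separate plants or how many plants were pooled, so p values measure the spread between these libraries alone. The labels used here give no plant age, harvest time or distance from the leaf base for the zones.

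Sucrose reaches growing leaf tissue from mature leaves through the phloem and has to be cleaved before its carbon is used. Sucrose synthase splits it reversibly with UDP into fructose and UDP-glucose, the substrate of cellulose and other wall polymers. Invertase splits it irreversibly by hydrolysis into glucose and fructose: in the vacuole the released hexoses add to the osmotic force that drives cell expansion, and at the cell wall they are taken up by hexose carriers.

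Library sums ran from 652957 to 1113550 FPKM and the loci at 1 FPKM or more from 21136 to 22119. Numbers of reads were not used here. The median SD between the replicates of a group, on the log2(FPKM + 1) scale, was 0.10 in LN elongation, 0.27 in HN elongation, 0.15 in LN division and 0.12 in HN division, so the HN elongation libraries lay farthest apart. Markers went with the labels of the zones, but they were chosen with earlier results of these data known, so this is no independent check. The summed level of 5 of 5 markers of dividing cells was 13.6 to 20.8 FPKM in LN elongation and 22.3 to 24.2 FPKM in HN elongation, against 250 to 254 FPKM in LN division and 188 to 194 FPKM in HN division.

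**Figure D1:**
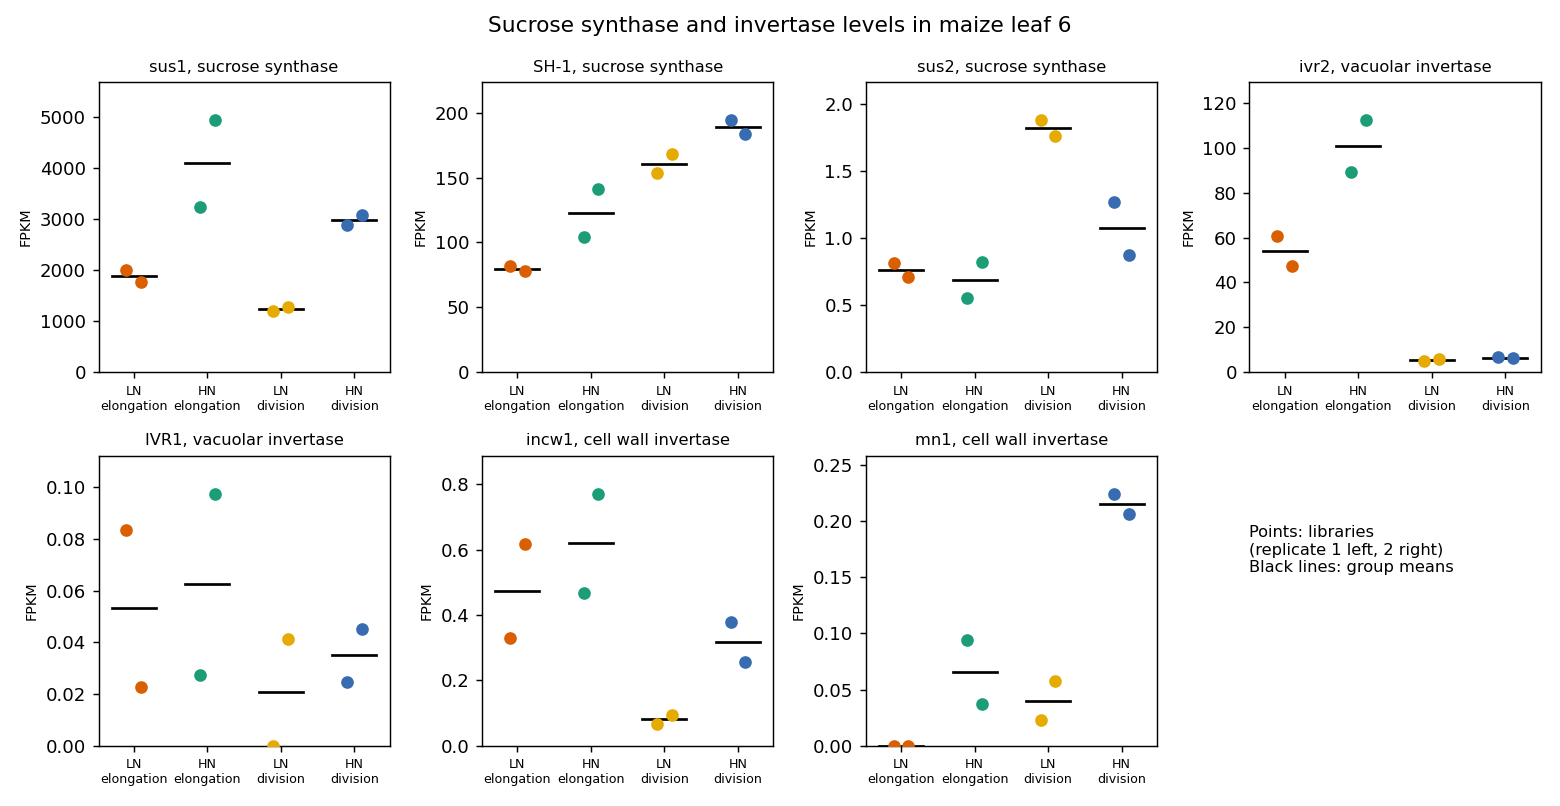
FPKM of each sucrose synthase and invertase (linear y axis from 0, a scale of its own in each panel) in the 8 libraries, grouped by nitrogen supply and zone; points are libraries and black lines are means of 2. sus1 lies between 1199 and 4948 FPKM, ivr2 is high in the elongation zone alone, and IVR1, incw1 and mn1 stay under 1 FPKM. The LN libraries of sus1, SH-1, ivr2 and mn1 lie under the HN libraries of the same zone. Such a separation was found at 28.8% of the loci tested in the elongation zone and 31.8% in the division zone. Neither nitrogen difference of sus1 passed the limma test.

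The sucrose synthase sus1 (GRMZM2G152908, at chr9:122479052-122485725 on B73 RefGen_v3) was by far the most abundant of these genes and one of the most abundant of the leaf. It stood at 1996 and 1773 FPKM in LN elongation, 3249.6 and 4948 FPKM in HN elongation, 1199 and 1270.3 FPKM in LN division and 2879 and 3078 FPKM in HN division. By FPKM it ranked between the 8th and 49th highest of all loci of a library. It held 0.299% and 0.249% of the summed FPKM in LN elongation and 0.399% and 0.444% in HN elongation, against 0.184% and 0.170% in LN division and 0.338% and 0.409% in HN division.

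All 4 LN libraries lay under all 4 HN libraries for sus1, and the order of the groups was HN elongation, HN division, LN elongation, LN division, with no overlap between neighbours. With libraries scaled to equal sums, HN elongation (3104 and 3458) and HN division (2628 and 3186) did overlap. In the elongation zone the mean was 1885 ± 158 FPKM in LN and 4099 ± 1201 FPKM in HN (SD, n = 2 each), 2.18-fold lower in LN. In the division zone it was 1234 ± 50.7 FPKM in LN and 2979 ± 141 FPKM in HN (SD, n = 2 each), 2.41-fold lower in LN. Within the elongation zone, both LN libraries lay under both HN libraries at 28.8% of the loci tested (35.6% lay above). In the division zone they did so at 31.8%, so such a separation is common in groups of this size. The share of loci with all 4 LN libraries under all 4 HN libraries was not counted.

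Neither nitrogen difference of sus1 passed the test, limma on log2(FPKM + 1) with Benjamini-Hochberg adjustment over 24706 loci. The log2 change was -1.09 in the elongation zone (SE 0.39, 95% interval -2.02 to -0.16, adjusted p = 0.0857) and -1.27 in the division zone (SE 0.39, 95% interval -2.20 to -0.34, adjusted p = 0.111). In the division zone 1.76% of the loci tested had a log2 change at or under that of sus1, and in the elongation zone 7.52%. The call changed in several alternatives. Without HN elongation replicate 1 the adjusted p was 0.0175 in the elongation zone (log2 change -1.39) and 0.0307 in the division zone, and without HN elongation replicate 2 it was 0.0329 in the division zone, where these libraries enter only the shared estimate of spread. With libraries scaled to equal sums, sus1 passed in both zones, with log2 changes of -0.62 (adjusted p = 0.0255) in the elongation zone and -1.07 (adjusted p = 0.0130) in the division zone.

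Between zones sus1 differed less. The elongation zone was above the division zone at both supplies, 1.53-fold in LN and 1.38-fold in HN, with no overlap in the unscaled values. Such a separation upward was found at 42.9% of the loci tested in LN and 33.9% in HN. The log2 changes of 0.61 in LN (95% interval -0.33 to 1.54, adjusted p = 0.240) and 0.43 in HN (95% interval -0.50 to 1.36, adjusted p = 0.409) did not pass the limma test. With equal sums the LN difference passed, at 0.63 (adjusted p = 0.0134), while the HN difference was 0.18 (adjusted p = 0.373). The HN difference was 0.73 without HN elongation replicate 1 and 0.13 without HN elongation replicate 2.

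SH-1 (chr9:11500926-11507687 on B73 RefGen_v3), the sucrose synthase named for the shrunken kernels of its mutant, ran the other way between zones. It stood at 81.7 and 77.9 FPKM in LN elongation and 104 and 141 FPKM in HN elongation, against 154 and 168 FPKM in LN division and 194 and 184 FPKM in HN division. Here the division zone held the higher levels, in the order HN division, LN division, HN elongation, LN elongation, and no 2 groups overlapped. With libraries scaled to equal sums, HN division (177 and 190) and LN division (183 and 175) did overlap. A separation downward from division to elongation zone was found at 36.6% of the loci tested in LN and 35.2% in HN. One downward with low nitrogen was found at 28.8% in the elongation zone and 31.8% in the division zone.

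The fall of SH-1 in the elongation zone passed the test at both supplies. In LN the mean was 79.8 ± 2.73 FPKM in the elongation zone and 161 ± 10.1 FPKM in the division zone (SD, n = 2 each), a log2 change of -1.0 (SE 0.19, adjusted p = 0.00504, limma) that passed in every alternative run. In HN it was 123 ± 26.3 FPKM in the elongation zone and 189 ± 7.44 FPKM in the division zone (SD, n = 2 each), a log2 change of -0.64 (SE 0.19, adjusted p = 0.0347, limma). The HN call ended without any 1 of the 4 LN libraries or either HN division library, at adjusted p = 0.0588 to 0.149. It also ended with the 2 groups fitted alone (adjusted p = 0.125).

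The low nitrogen differences of SH-1 did not pass the test. The log2 change from HN was -0.60 in the elongation zone (95% interval -1.05 to -0.15, adjusted p = 0.0629, limma), and it passed without HN elongation replicate 1 (-0.82, adjusted p = 0.00926) and with libraries scaled to equal upper quartiles (-0.52, adjusted p = 0.0460), while without HN elongation replicate 2 it was -0.38 (adjusted p = 0.107) and with equal sums -0.14 (adjusted p = 0.343). In the division zone it was -0.23 (95% interval -0.69 to 0.22, adjusted p = 0.523, limma), and -0.037 with equal sums.

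The third sucrose synthase, sus2 (GRMZM2G318780, at chr1:56787028-56794227 on B73 RefGen_v3), was scarce. It had 0.812 and 0.708 FPKM in LN elongation and 0.552 and 0.823 FPKM in HN elongation, against 1.88 and 1.76 FPKM in LN division and 1.27 and 0.876 FPKM in HN division. The LN division libraries were the highest, followed by HN division, while the elongation groups overlapped. Only the division groups reached a mean of 1 FPKM (1.82 in LN and 1.07 in HN). The gene was thus tested only through the higher side of its zone differences. In LN it was lower in the elongation zone than in the division zone, with a log2 change of -0.68 (SE 0.18, adjusted p = 0.0197, limma). That call ended without LN elongation replicate 2, LN division replicate 1 or LN division replicate 2, at adjusted p = 0.0528 to 0.0678.

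In HN the zone difference of sus2 was -0.30 (95% interval -0.73 to 0.14, adjusted p = 0.231, limma). It was -0.16 without HN division replicate 1, -0.18 without HN elongation replicate 1 and -0.58 with a pseudocount of 0.1. Low nitrogen gave a log2 change of 0.07 (95% interval -0.37 to 0.50, adjusted p = 0.820) in the elongation zone and 0.45 (95% interval 0.02 to 0.89, adjusted p = 0.198) in the division zone. The elongation value was -0.051 without HN elongation replicate 1, and the division value ran from 0.31 to 0.73 over the alternatives. Of the 3 sucrose synthases, sus2 was the only one whose LN division libraries lay above the HN division libraries, as did 27.1% of the loci tested. At about 1 FPKM these log2 values understate the ratios of the means, which were 1.70 between LN and HN in the division zone and 0.417 between elongation and division zone in LN.

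**Figure D2:**
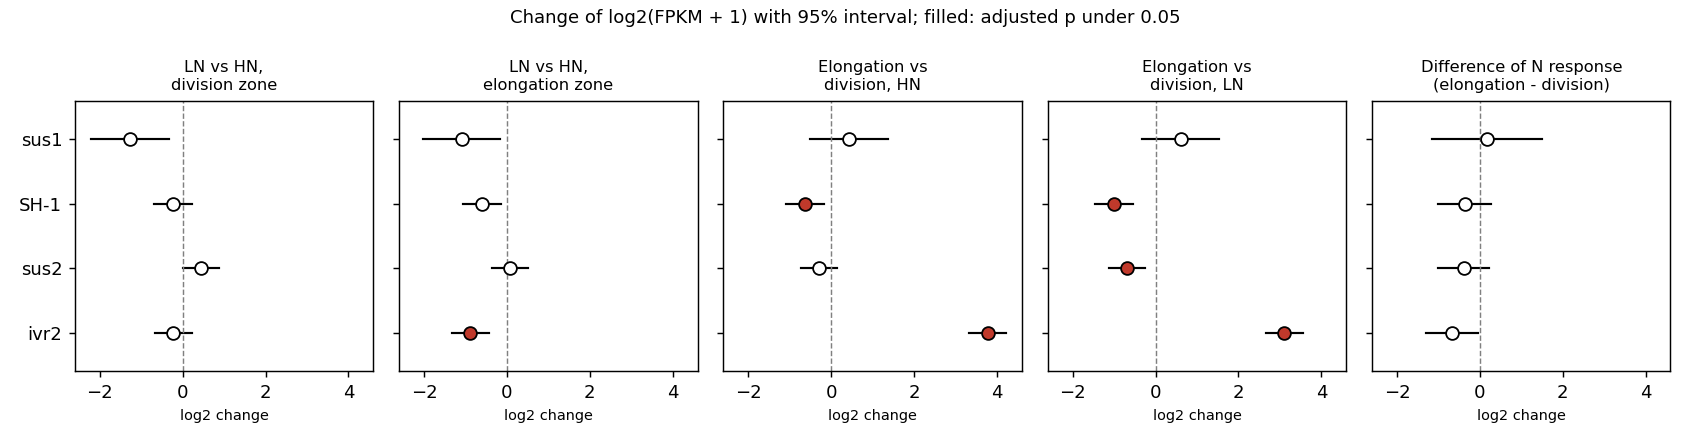
Log2 change of log2(FPKM + 1) (x axis) for the 4 tested genes (y axis) in the 5 comparisons, with 95% intervals from limma; filled points have an adjusted p under 0.05. The ivr2 points of the zone comparisons lie at 3.77 in HN and 3.11 in LN, SH-1 lies under 0 in both, and no point is filled for sus1 or in the last panel.

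The vacuolar invertase ivr2 (GRMZM2G089836, at chr5:67537393-67540691 on B73 RefGen_v3) was far higher in the elongation zone. It had 60.6 and 47.5 FPKM in LN elongation and 89.5 and 112 FPKM in HN elongation, against 4.87 and 5.87 FPKM in LN division and 6.74 and 6.09 FPKM in HN division. The groups ranked HN elongation, LN elongation, HN division, LN division without overlap, and the step lay between the zones. Separation upward from division to elongation zone was found at 42.9% of the loci tested in LN and 33.9% in HN. Separation downward with low nitrogen was found at 28.8% in the elongation zone and 31.8% in the division zone.

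The rise of ivr2 in the elongation zone was 10.1-fold in LN, with means of 54.0 ± 9.27 FPKM in the elongation zone and 5.37 FPKM in the division zone. In HN it was 15.7-fold, with 101 ± 16.2 FPKM in the elongation zone and 6.42 FPKM in the division zone (SD, n = 2). The log2 changes were 3.11 in LN (SE 0.19, adjusted p = 5.08e-05, limma) and 3.77 in HN (SE 0.19, adjusted p = 7.06e-05, limma), and both passed under every alternative run. Of the loci tested, 98.4% had a log2 change at or under that of ivr2 in LN and 99.5% in HN.

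At low nitrogen ivr2 was lower in the elongation zone. The LN mean was 1.87-fold under the HN mean, a log2 change of -0.89 (SE 0.19, 95% interval -1.34 to -0.44, adjusted p = 0.0208, limma), with both LN libraries under both HN libraries. The call ended with equal sums (-0.43, adjusted p = 0.0845), with the 2 groups fitted alone (adjusted p = 0.117), and without HN elongation replicate 2 (adjusted p = 0.0585), LN elongation replicate 1 (0.0733) or LN elongation replicate 2 (0.118). In the division zone the log2 change was -0.22 (95% interval -0.67 to 0.22, adjusted p = 0.537, limma), and it ran from -0.34 to -0.054 over the alternatives. The difference between the nitrogen responses, elongation minus division, was -0.67 (95% interval -1.30 to -0.04, adjusted p = 0.265), so a larger response in the elongation zone was not shown.

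Markers of tissue make-up differed between the zones, as ivr2 and SH-1 did. Those of lengthening cells were higher in the elongation zone, as ivr2 was, while SH-1 was lower there. The summed level of 4 of 4 markers of lengthening cells was 743 to 745 FPKM in LN elongation and 465 to 678 FPKM in HN elongation, against 15.5 to 16.1 FPKM in LN division and 23.8 to 27.5 FPKM in HN division. Markers of mature photosynthetic blade, 6 loci under 4 names, differed with nitrogen as well as between zones. They summed to 170 to 283 FPKM in LN elongation and 1131 to 1545 FPKM in HN elongation. In the division zone they summed to 23.2 to 30.9 FPKM in LN and 76.6 to 77.1 FPKM in HN. Of these 6 loci, 1 of the 3 named rbcS was listed at 0 in all 8 libraries. In such whole tissue, fewer cells of a type and less RNA per cell cannot be told apart. The part of these markers in the differences of sus1, SH-1 and ivr2 was not tested.

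The other invertases were near the lower end of the scale. The cell wall invertase incw1 (GRMZM2G139300, at chr5:169497597-169502089 on B73 RefGen_v3) had 0.330 and 0.616 FPKM in LN elongation and 0.468 and 0.771 FPKM in HN elongation, against 0.0674 and 0.0935 FPKM in LN division and 0.380 and 0.256 FPKM in HN division. The elongation groups overlapped, and LN division was the lowest. With no filter on low values, its rise in the LN elongation zone over the LN division zone was 0.44 on the log2 scale (adjusted p = 0.0429, limma), and none of its other comparisons passed (adjusted p = 0.151 to 0.702). At such low levels the log2 value of this rise understates the ratio of the means, which was 5.88.

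The cell wall invertase mn1 (GRMZM2G119689, at chr2:57435843-57439124 on B73 RefGen_v3), known from the small kernels of the miniature1 mutant, was listed at 0 in both LN elongation libraries and had 0.0938 and 0.0369 FPKM in HN elongation. It had 0.0226 and 0.0574 FPKM in LN division and 0.224 and 0.206 FPKM in HN division, its highest group. With no filter, the HN elongation zone was lower than the HN division zone by a log2 change of -0.19 (adjusted p = 0.0253, limma), and the LN to HN difference in the division zone was -0.22 (adjusted p = 0.0608). The ratios of the means were 0.304 and 0.186, which log2 values at such low levels understate. The vacuolar invertase IVR1 (chr2:23504839-23509410 on B73 RefGen_v3) stayed between 0 and 0.0975 FPKM, and its groups overlapped. With read numbers unknown, it is not known how many fragments such values stand for.

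Counted over the genes found by identifier, 0 of the 3 tested were called for low nitrogen in the division zone, where limma called 5.09% of all loci tested (1.81% higher and 3.27% lower). In the elongation zone 0 rose and 1, ivr2, fell with low nitrogen, where 22.4% of all loci were called (9.86% higher and 12.5% lower). Between zones in HN 1, ivr2, rose and 0 fell, where 41.7% of all loci were called (22.1% higher and 19.7% lower). In LN 1 rose (ivr2) and 1 fell (sus2), where 48.6% of all loci were called (26.2% higher and 22.4% lower). For the difference between nitrogen responses 0 of 3 were called, against 0.283% of all loci (0.13% higher and 0.154% lower). Unadjusted limma p values under 0.05 were found for 2 of 3 (sus1 and sus2) in the division zone, against 23.4% of all loci, for 2 of 3 (sus1 and ivr2) in the elongation zone, against 40.0%, and for 1 of 3 (ivr2) in the difference of responses, against 18.0%. The call rates of all loci are high between zones, so counts over 3 genes carry little.

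**Figure D3:**
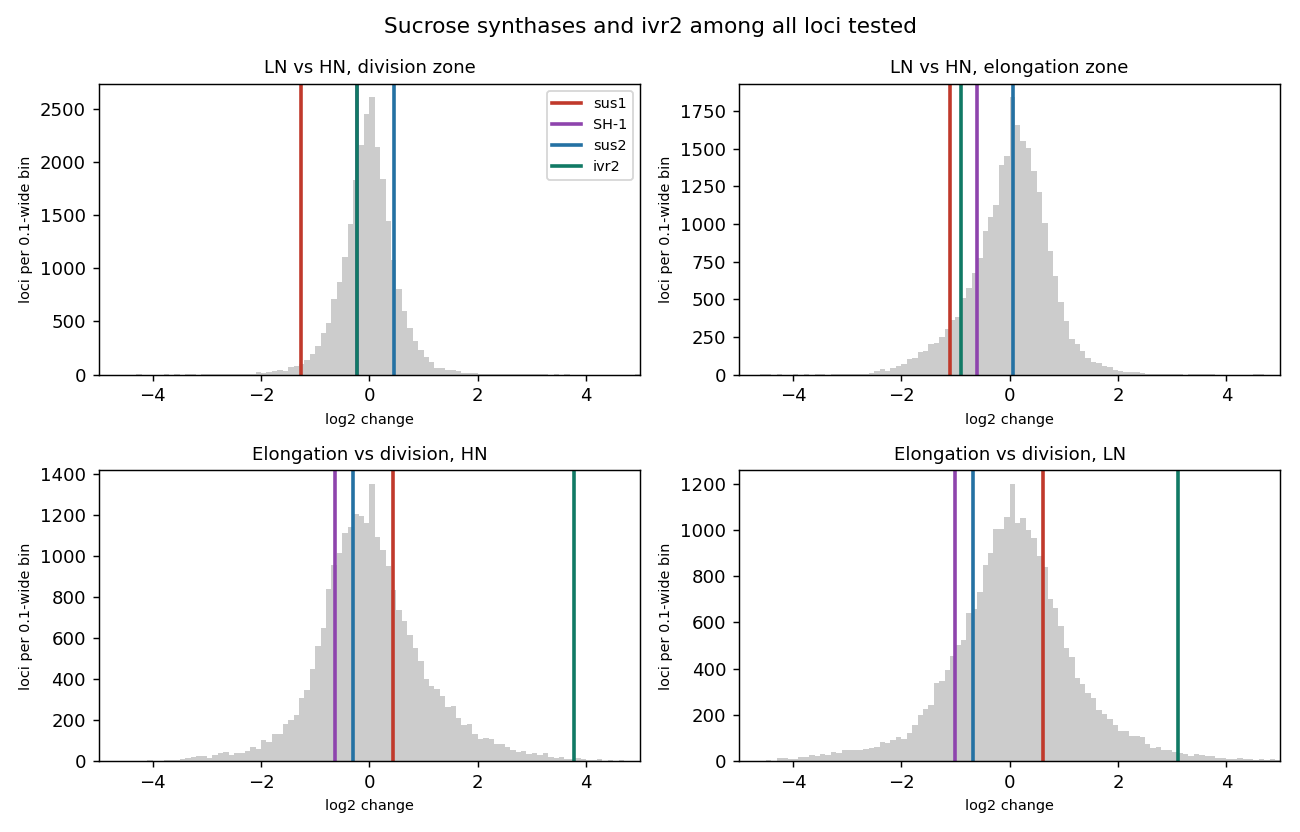
Log2 change of the 24706 tested loci (grey histograms, loci per bin) in 4 comparisons, with vertical lines at sus1, SH-1, sus2 and ivr2. Loci with a change under -5 or over 5 lie outside the axis. The ivr2 line stands in the far right tail of both zone panels and the sus1 line at the left of both nitrogen panels; in the first panel SH-1 and ivr2 coincide at -0.23 and -0.22, and SH-1 is hidden.

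Ratios of genes within a library do not depend on how libraries are scaled. The ratio of sus1 to SH-1 was 24.4 and 22.8 in LN elongation and 31.2 and 35.0 in HN elongation, against 7.80 and 7.56 in LN division and 14.8 and 16.7 in HN division. It was thus lower in LN in both zones and higher in the elongation zone at both supplies, with no overlap. The share of gene pairs whose ratio separates in this way was not counted. In LN division SH-1 made up 11.3% and 11.7% of the summed FPKM of the 3 sucrose synthases, its highest share, and sus1 made up 88.2% to 97.2% over all libraries.

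Between the enzyme classes the balance differed most by zone. The ratio of sus1 to ivr2 was 32.9 and 37.3 in LN elongation and 36.3 and 44.0 in HN elongation, against 246.0 and 217 in LN division and 427 and 505 in HN division. It was thus also lower in LN than in HN in the division zone, while the supplies overlapped in the elongation zone. The ratio of SH-1 to ivr2 was 1.35 and 1.64 in LN elongation and 1.16 and 1.26 in HN elongation, against 31.5 and 28.6 in LN division and 28.8 and 30.2 in HN division. SH-1 was thus near the level of ivr2 in the elongation zone and far above it in the division zone, and in the division zone this ratio overlapped between LN and HN. In every library ivr2 made up between 91.8% and 99.5% of the summed FPKM of the invertases found by identifier.

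**Figure D4:**
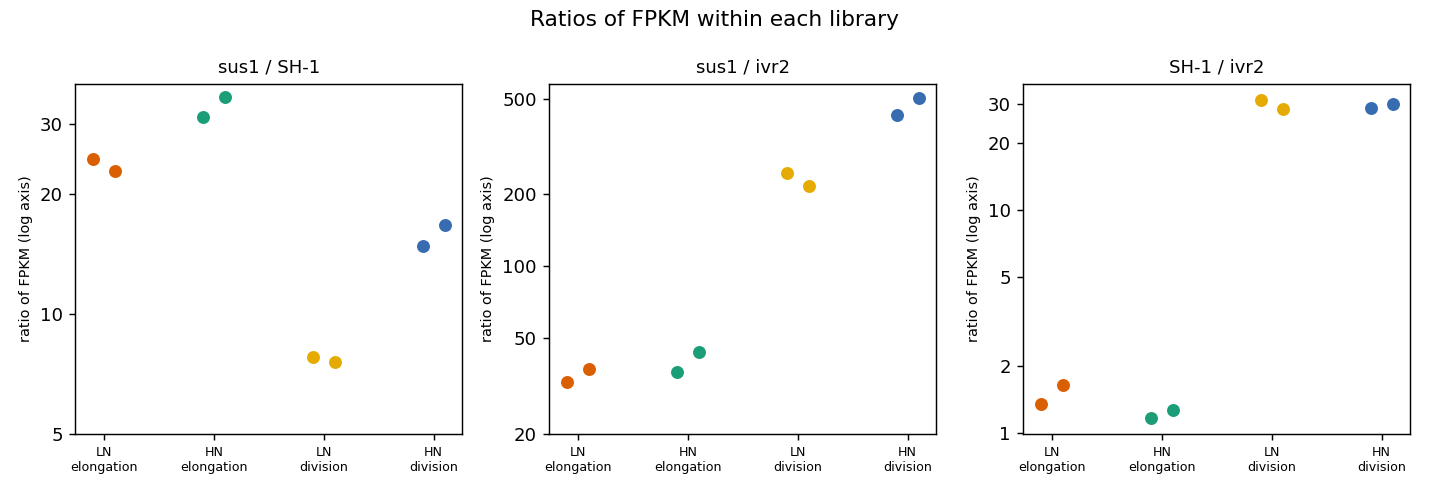
Ratio of FPKM within each library (log y axes) for sus1 to SH-1, sus1 to ivr2 and SH-1 to ivr2, by group; each point is 1 library. The ratio of sus1 to SH-1 separates all 4 groups, from 7.56 in LN division to 35.0 in HN elongation, and the ratio of SH-1 to ivr2 separates the zones. How many other gene pairs separate in these ways was not counted.

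No nitrogen response was shown to differ between the zones. The differences, elongation minus division, were 0.18 for sus1 (95% interval -1.14 to 1.5, adjusted p = 0.872, limma), -0.37 for SH-1 (adjusted p = 0.473) and -0.39 for sus2 (95% interval -1.0 to 0.23, adjusted p = 0.434). For sus1 the sign turned without HN elongation replicate 1 (-0.12). These intervals are wide beside the nitrogen differences themselves.

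Other genes of sucrose synthesis, transport and hexose phosphorylation were read from a list of 18 loci matched by gene symbol, which includes the 5 genes, SH-1 and IVR1, and of which 12 were tested. For low nitrogen 0 of 12 were called in the division zone, against 5.09% of all loci tested (median log2 change -0.45, against -0.01 over all loci). In the elongation zone 3 of 12 fell and 0 rose, against 12.5% and 9.86% of all loci (median -0.52, against 0.07). Between zones in HN 6 of 12 rose and 1 fell, against 22.1% and 19.7% of all loci (median 0.46, against -0.02). In LN 6 of 12 rose and 2 fell, against 26.2% and 22.4% of all loci (median 0.55, against 0.07). With equal sums the median of all loci moved to 0.43 in the elongation zone for nitrogen and to -0.22 between zones in HN, and the share of called loci that were higher moved from 44.1% to 77.4% and from 52.9% to 41.0%.

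The other genes that fell with low nitrogen in the elongation zone, besides ivr2, were a sucrose phosphatase and a fructokinase. SPP2, which releases sucrose from sucrose phosphate in the last step of synthesis, had 0.439 and 0.843 FPKM in LN elongation and 2.89 and 3.12 FPKM in HN elongation, a log2 change of -1.30 (adjusted p = 0.00736, limma). At such low levels this value understates the ratio of the means, 4.69-fold lower in LN, and it was -2.12 with a pseudocount of 0.1. SPP2 reached a mean of 1 FPKM in HN elongation alone (3.01 FPKM), so it was tested only through the higher group of this difference. The same holds for its zone difference in HN, given below. FRK1, which phosphorylates the fructose released by both kinds of enzyme, had 27.0 and 24.2 FPKM in LN elongation and 42.5 and 61.9 FPKM in HN elongation, a log2 change of -0.98 (adjusted p = 0.0327, limma). The FRK1 call ended in 7 of 16 alternatives, among them without HN elongation replicate 2 (-0.71, adjusted p = 0.0948), and without either LN elongation or either LN division library (adjusted p = 0.0613 to 0.160). With equal sums its change was -0.52 (adjusted p = 0.0396). The SPP2 call ended with the 2 groups fitted alone (adjusted p = 0.0887). FRK2, the most abundant of these other genes, averaged 560 ± 42.1 FPKM in LN and 1002 ± 276 FPKM in HN elongation (SD, n = 2 each) and was not called (log2 change -0.81, adjusted p = 0.0913); it was named after its values were seen. The FRK2 change was -1.10 without HN elongation replicate 1 (adjusted p = 0.0226), -0.53 without HN elongation replicate 2 and -0.35 with equal sums.

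The sucrose transporters sut4 and sut1 were higher in the elongation zone at both supplies. sut4 had 22.2 and 21.9 FPKM in LN elongation against 4.84 and 5.53 FPKM in LN division (log2 change 1.90, adjusted p = 7.34e-05, limma), and 16.5 and 15.8 FPKM in HN elongation against 6.21 and 6.44 FPKM in HN division (1.23, adjusted p = 0.000594). sut1, a phloem loading transporter, had 5.50 and 9.21 FPKM in LN elongation against 0.536 and 0.754 FPKM in LN division (2.31, adjusted p = 0.000394, limma), and 7.69 and 9.43 FPKM in HN elongation against 1.53 and 1.75 FPKM in HN division (1.85, adjusted p = 0.00134). The libraries of the zones did not overlap for either transporter, which also holds upward for 42.9% of all loci tested in LN and 33.9% in HN.

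The other genes called between zones were SPP1, SPP2, the hexokinase hex2 and sut2. SPP1 rose in LN (24.1 and 26.6 against 12.8 and 10.6 FPKM, log2 change 1.06, adjusted p = 0.00422, limma), and SPP2 rose in HN (2.89 and 3.12 against 0.963 and 0.947 FPKM, 1.04, adjusted p = 0.00449). hex2 rose in HN (10.5 and 10.8 against 6.86 and 7.65 FPKM, 0.49, adjusted p = 0.0335), a call that ended in 10 of 16 alternatives, including both scalings (0.27 with equal sums, adjusted p = 0.301), and without either HN division, LN division or LN elongation library or HN elongation replicate 2. Named after their values were seen, SPP1 also rose in HN (0.62, adjusted p = 0.0391), and hex2 (0.50, adjusted p = 0.0272) and sut2 (0.83, adjusted p = 0.0143) rose in LN. The SPP1 call in HN ended in 11 of 16 alternatives, at adjusted p of up to 0.340 (0.38 with equal sums), and when any 1 library other than HN elongation replicate 2 was left out. The hex2 call in LN ended in 7, with equal sums (adjusted p = 0.0612) and without any 1 library outside the HN elongation group (0.0514 to 0.148). The sut2 call ended in 4, with equal sums (0.0583) and without LN division replicate 2 or either LN elongation library (0.0659 to 0.0952). The only genes of the list called lower were SH-1 at both supplies and sus2 in LN. Of the untested loci, the sucrose phosphate synthase SPS had 0.0401 to 0.389 FPKM, the cell wall invertase incw3 0 to 0.0311 FPKM, and the trehalose phosphate phosphatase ra3 was listed at 0 in all libraries.

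**Figure D5:**
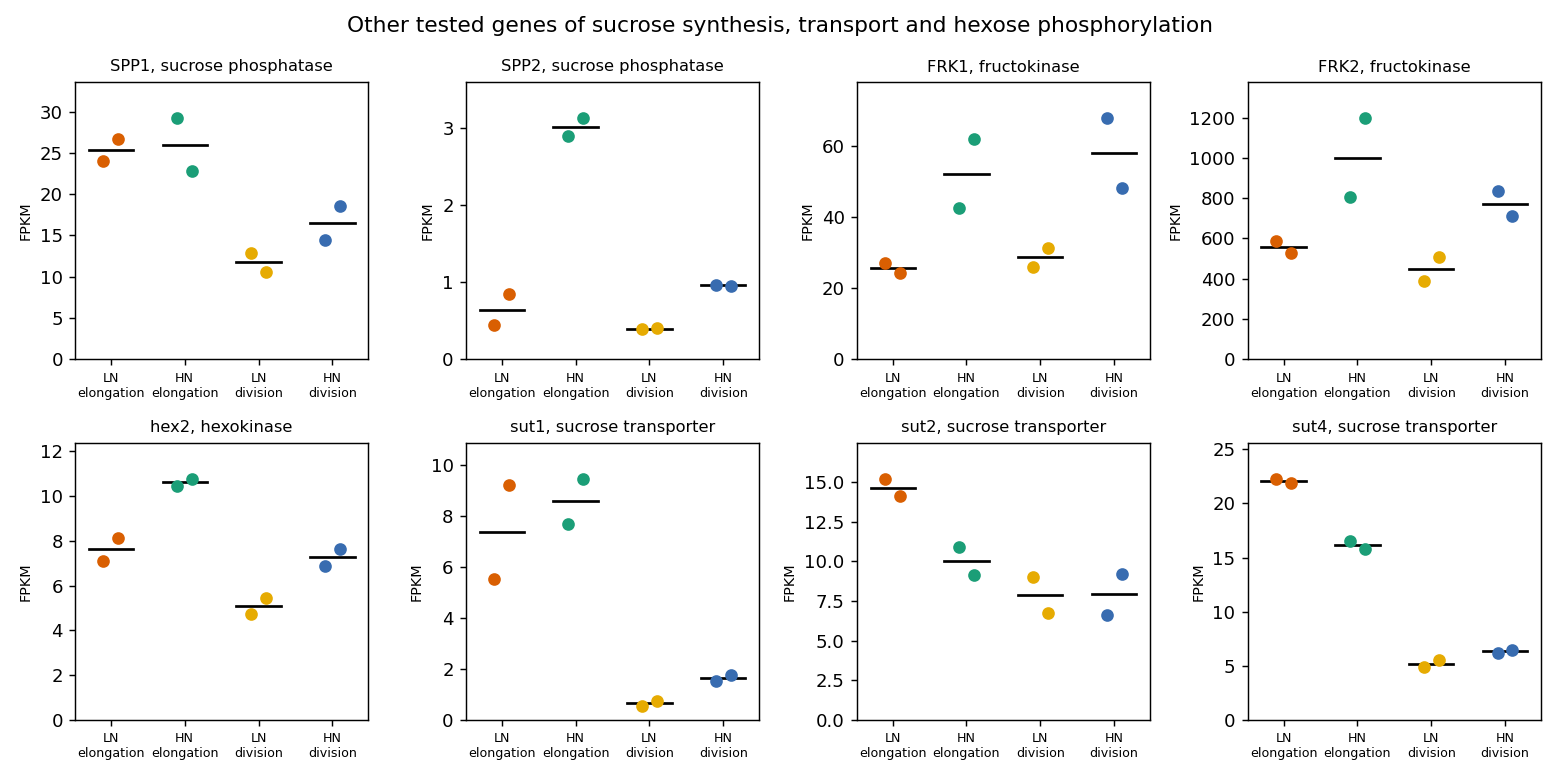
FPKM (linear y axis from 0, a scale of its own in each panel) of the 8 other tested genes of sucrose synthesis, transport and hexose phosphorylation in the 8 libraries; points are libraries and black lines are means of 2. SPP2 is highest in HN elongation at 2.89 and 3.12 FPKM, and sut1 and sut4 are higher in the elongation zone at both supplies. The LN libraries of FRK1, FRK2, SPP2 and hex2 lie under the HN libraries in both zones. Such a separation was found at 28.8% of the loci tested in the elongation zone and 31.8% in the division zone.

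Among 2088 tested loci with an informative name, those whose log2 values were most correlated over the 8 libraries with sus1 were RH2 (Pearson r = 0.992), pdh1 (0.989) and GAPC3 (0.982). For SH-1 they were RHL2 (r = 0.997), Dek40 (0.989) and ENO2 (0.987), and for ivr2 PGR5 (r = 0.996), MSRA4 (0.995) and gar2 (0.992). The values for sus2 were 0.972 for HMGR, 0.972 for dof3 and 0.967 for IWS1.1. All points share their libraries and the large contrast between zones, so these figures describe likeness of pattern alone.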

How the data were processed

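The deposited table holds values per assembled locus for 8 libraries, read here as FPKM; this unit is stated nowhere and was inferred: the numbers are not whole and column totals differ. TopHat2, edgeR and the build B73 RefGen_v3 are named in the submitters' processing notes, without versions or roles. Read numbers, and how reads shared by similar genes were assigned, are not given in these sources. Start positions count from 0 in the table, so 1 was added.

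The 44070 lines gave 43110 loci, each used once. RefSeq gene names of the assembly Zm-B73-REFERENCE-NAM-5.0 were joined by identifier (18742 loci matched); 382 names in the table are symbols and were matched as such. Genes known by tps symbols (22) were left out of the list, since terpene synthases share them. Most RefSeq symbols are uninformative, so synonyms were used.

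limma 3.58.1 (R 4.3.3) with an intensity trend was fitted to log2(FPKM + 1) of the 24706 loci whose mean reached 1 FPKM in any of the 4 groups, all 8 libraries sharing 1 estimate of spread (4 residual degrees of freedom). The Benjamini-Hochberg threshold was 0.05 over all loci, in 5 comparisons. An exact permutation test of 2 against 2 libraries cannot go below p = 0.333, so none was used. The script was tested on simulated data. Further tools were pandas 2.3.3 and numpy 2.4.6 under Python 3.11.15, with matplotlib 3.10.9 for figures.

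Members, lists, markers and tests were chosen with earlier results of these data known. Of the genes on the list that are not among the 5, up to 4 called per comparison were named by smallest adjusted p, with every sucrose synthase and invertase; likeness named the 3 highest Pearson correlations. Alternatives were a pseudocount of 0.1, no filter, a filter at 5 FPKM, 2 scalings, a replicate block, no intensity trend, the 2 groups alone, and each library left out. Relative depth, from the steps between low values, ran from 0.758 to 1.25 of HN division replicate 1, with 9.17% to 17.5% of low values in step, so absolute depth is unknown.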

Additional observations from a re-analysis of the deposited data

Results flagged for a closer look

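The sucrose transporter sut4, of the wider list, moved in opposite directions with low nitrogen in the 2 zones, with no overlap between libraries in either; a separation upward in the elongation zone was found at 35.6% of the loci tested and one downward in the division zone at 31.8%. It had 22.2 and 21.9 FPKM in LN elongation against 16.5 and 15.8 FPKM in HN elongation (log2 change 0.43, adjusted p = 0.0547, limma), and 4.84 and 5.53 FPKM in LN division against 6.21 and 6.44 FPKM in HN division (-0.25, adjusted p = 0.312, limma). The difference between the responses, elongation minus division, was 0.677077, or 0.68 rounded, with an adjusted p of 0.168 (limma, 95% interval 0.24 to 1.11), so it did not pass the test. It passed without HN elongation replicate 1 (0.71, adjusted p = 0.0491). Over 15 alternatives it ran from 0.60 to 0.95, with adjusted p from 0.0491 to 0.477. With equal sums the elongation change was 0.87 (adjusted p = 0.0209) and the division change -0.079 (adjusted p = 0.852). The elongation change also passed with equal upper quartiles (0.50, adjusted p = 0.0391), with the filter at 5 FPKM (adjusted p = 0.0446) and without HN elongation replicate 1 (0.46, adjusted p = 0.0383). Without LN division replicate 1 the division change was -0.17.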

How the results depend on the processing

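Over 16 alternatives and 36 results, 490 of 564 values kept their direction and their side of the threshold. For the 5 genes found by identifier, of which 3 were tested, the number called for low nitrogen in the division zone was 0, against 1 with equal sums and 1 with no intensity trend, and 0 to 1 with a library left out. In the elongation zone it was 1, against 2 with no intensity trend, 0 with the 2 groups alone and 0 to 2 with a library left out. With equal sums the number in the elongation zone was also 1, but the gene called was sus1 and not ivr2. Between zones in HN the number called was 1, against 2 with no filter, where all 5 were tested and mn1 was added. In LN it was 2, against 3 with no filter (incw1 added), 3 with equal sums (sus1 added), 1 with the filter at 5 FPKM, which left sus2 untested, and 1 to 2 with a library left out. For the list of 18 loci, the number called for nitrogen in the division zone was 0, against 3 with equal sums, 1 with equal upper quartiles, 1 with no intensity trend and 0 to 2 with a library left out. In the elongation zone it was 3, against 5 with equal upper quartiles, 0 with the 2 groups alone and 1 to 7 with a library left out. Between zones in HN it was 7, against 4 with the 2 groups alone and 4 to 6 with a library left out, and in LN 8, against 5 to 8. For the difference of responses it was 0, against 0 to 1. Without HN elongation replicate 1, 2 uncalled values changed sign: sus1 in the difference of responses (-0.12, range -0.12 to 0.48 with a library left out) and sus2 for nitrogen in the elongation zone (-0.051, range -0.051 to 0.18). The cause of these changes was not tested. A fit with fewer libraries also has fewer degrees of freedom.

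Deviations of same-numbered libraries from their group means correlated at r from -0.19 to 0.33 over 6 pairs of groups, highest between HN elongation and LN division. With 2 libraries a group, this cannot decide whether same-numbered libraries shared a plant, day or batch. The labels name no such link. With a replicate block the counts for the 5 genes were unchanged, and the list counts were 2 for nitrogen in the elongation zone, 5 between zones in HN and 8 in LN. The block ended the calls of FRK1 for nitrogen in the elongation zone (adjusted p = 0.0525) and, between zones in HN, of SH-1 (0.0550) and SPP1 (0.0629).

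With 2 libraries a group, a missed threshold does not show that values were alike. Depth is unknown, so the counting error of low values could not be computed.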
